A study of Mus musculus with 2 samples.

Results

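The IL-1 family genes examined here are 3 ligands (Il1a, Il1b and Il33), 4 signaling receptors (Il1r1, Il1rl1, Il18r1 and Il18rap) and 3 decoys or antagonists (Il1rn, Il1r2 and Sigirr). These 10 genes were taken by symbol from the 23284 genes listed in each library, and all 10 were found. The transcriptome was measured by RNA-seq in leukemic stem cells (LSCs) from mice with chronic myeloid leukemia (CML), a disease driven by the fusion kinase BCR-ABL, to ask how gene expression differs when the adapter protein STAP-1 is missing. Each genotype, WT and STAP-1 KO, was represented by a single library, so that WT LSCs and STAP-1 KO LSCs stand below for 1 library each. Both were of C57BL/6J background, and in both the donor LSK cells, which lack lineage markers and carry Sca-1 and c-Kit, had been transduced with a retrovirus for human BCR-ABL and green fluorescent protein (GFP). The transduced cells were injected into lethally irradiated C57BL/6SJL recipients together with C57BL/6SJL bone marrow cells, and mice were 8 to 14 weeks old. GFP+ CD45.2+ LSK cells were collected from the recipients 11 days later, so that both libraries hold donor-derived cells carrying BCR-ABL and differ by the STAP-1 genotype of the donor. The KO was present in every donor-derived cell but not in the recipient or its helper marrow. The number of mice behind each library was not given.

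Ligands of the IL-1 family bind a receptor chain of their own, which then pairs with an accessory chain, and the paired intracellular domains recruit the adapter MyD88 and activate NF-κB and MAP kinases. The family is held in check by an antagonist that occupies the receptor (Il1rn), by a decoy receptor that binds ligand without signaling (Il1r2) and by an inhibitory receptor of the same fold (Sigirr). In bone marrow, IL-1 drives myeloid output from stem and progenitor cells, and the IL-33 receptor encoded by Il1rl1 is best known on mast cells, basophils and type 2 lymphoid cells.

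Expression was given as FPKM, the fragments per kilobase of transcript scaled to library size, which allows levels to be compared between genes. With 1 library per genotype the differences cannot be set against a spread between replicates, and p-values are not given. Fold values are plain ratios of FPKM. The 95% intervals beside them come from estimated read numbers and cover the counting error of reads only. They cover neither the spread between animals nor that from amplifying the cDNA of few cells. A gene was counted as lower or higher in STAP-1 KO LSCs when its levels differed 2-fold or more and neither was under 0.1 FPKM. By this rule, 22.9% of the 12507 genes that could be compared were lower, 12.3% were higher and 35.2% passed in either direction. The targeted gene Stap1 had 62.0 FPKM in WT LSCs and 0.309 FPKM in STAP-1 KO LSCs. The sorting antigens were detected in both libraries, with Kit at 468 and 30.1 FPKM and Ly6a, which encodes Sca-1, at 285 and 106 FPKM. Both were lower in STAP-1 KO LSCs by this rule, Kit 15.6-fold (14.8 to 16.4) and Ly6a 2.70-fold (2.46 to 2.92).

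In STAP-1 KO LSCs 5 of the 10 genes were lower, 1 was higher, 3 were under the cut-off and 1, Il33, lay below 0.1 FPKM in both libraries. Il1b, Il1a, Il1rl1, Il18rap and Il1rn were lower, whereas Il18r1 was higher. The call of Il1rn rests on about 11 and 7 reads with a counting interval that includes a ratio of 1, and 4 genes were lower with a floor of 1 FPKM or with a pseudocount. Beside the background of 22.9% and 12.3% the number of genes is small, and the counts describe these libraries only. For the 8 genes that averaged 1 FPKM or more the median log2((STAP-1 KO + 0.1)/(WT + 0.1)) was -1.12, and over the 10974 genes of the series with such an average it was -0.04. For all 10 genes it was -0.86. The summed FPKM of the ligands was 203 in WT LSCs and 40.9 in STAP-1 KO LSCs, and that of the signaling receptors was 561 and 38.5. The summed FPKM of the decoys and antagonists was 21.3 and 23.1. Ligands and signaling receptors were thus lower in sum, and decoys and antagonists were near the same sum. Each sum was mostly 1 gene, in WT LSCs Il1b (98.1%), Il1rl1 (92.8%) and Sigirr (73.2%), so the sums describe these genes more than their roles. In a bulk library, fewer cells of a type and less RNA per cell cannot be told apart, and this applies to every difference given here.

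**Figure D1:**
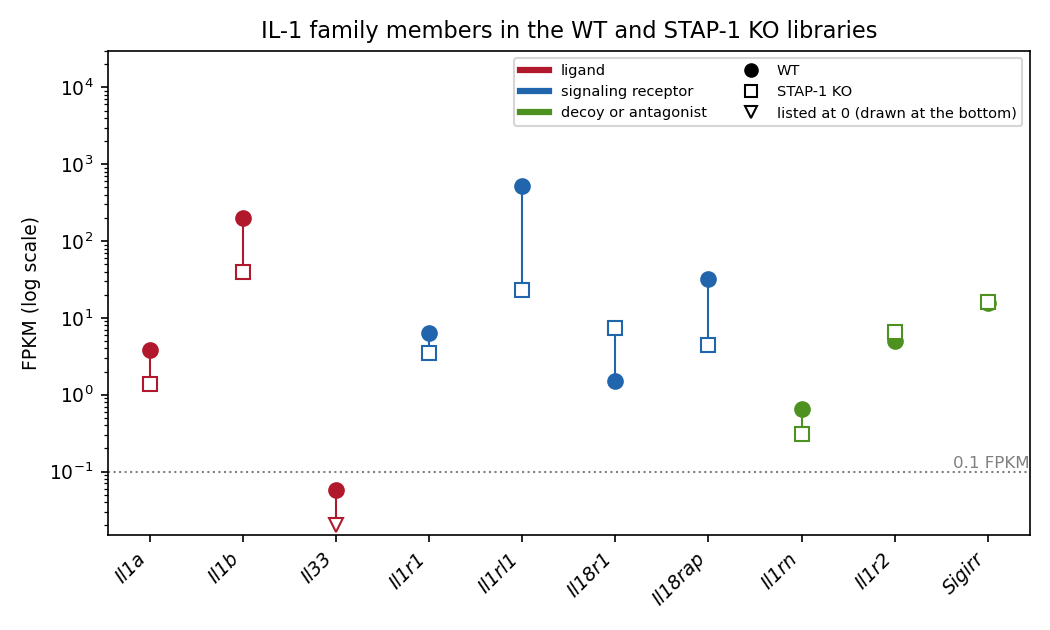
FPKM of each gene on a log axis in WT LSCs (filled circles) and STAP-1 KO LSCs (open squares), coloured by role, with the 0.1 FPKM limit dotted. The widest gap is that of Il1rl1 (521 and 23.3 FPKM), Il18r1 is the gene whose KO value lies well above its WT value (1.49 and 7.31 FPKM), and Sigirr overlaps (15.6 and 16.2 FPKM).

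The order of the levels differed between the libraries. In WT LSCs Il1rl1 was followed by Il1b, Il18rap, Sigirr, Il1r1, Il1r2, Il1a, Il18r1, Il1rn and Il33. In STAP-1 KO LSCs Il1b came first, followed by Il1rl1, Sigirr, Il18r1, Il1r2, Il18rap, Il1r1, Il1a, Il1rn and Il33. Some neighbours in these orders had overlapping counting intervals. These were Il1r1 and Il1r2, Il1r2 and Il1a, and Il18r1 and Il1rn in WT LSCs, and Il18r1 and Il1r2, Il18rap and Il1r1, and Il1rn and Il33 in STAP-1 KO LSCs. Il1rl1 ranked 131 among all genes in WT LSCs and 4248 in STAP-1 KO LSCs. Il1b ranked 456 and 2978, while Sigirr ranked 5603 and 5141.

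Il1b encodes IL-1β, the secreted pyrogen that needs cleavage to become active. Il1b had 199 FPKM in WT LSCs and 39.5 FPKM in STAP-1 KO LSCs, from about 1708 and 475 reads. It was 5.04-fold lower (95% counting interval from 4.53 to 5.57). Il1b made up 98.1% of the summed ligand FPKM in WT LSCs and 96.6% in STAP-1 KO LSCs, so that it was the leading ligand transcript in both. The gene lies on the minus strand of chromosome 2 (GRCm38, 129364570 to 129371139). Its neighbour Il1a (129299610 to 129309972, minus strand) encodes IL-1α, which signals through the same receptor and is active without cleavage. Il1a had 3.81 FPKM in WT LSCs and 1.37 FPKM in STAP-1 KO LSCs, from about 50 and 25 reads. It was 2.77-fold lower, with a counting interval from 1.69 to 4.71. The ratio of Il1b to Il1a was 52.3 in WT LSCs (39.7 to 71.2) and 28.8 in STAP-1 KO LSCs (19.6 to 45.6), and these counting intervals overlapped. Correcting for GC content and transcript length widened both differences, with a log2 ratio of -2.95 in place of -2.33 for Il1b and of -2.07 in place of -1.41 for Il1a.

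Il33 encodes the ligand of Il1rl1, an alarmin of epithelial, endothelial and stromal cells, and lies on chromosome 19 (29925114 to 29960718, plus strand). It had 0.0573 FPKM in WT LSCs, about 1 read, and was listed at 0 in STAP-1 KO LSCs. For a transcript of 2000 bases 3 reads correspond to 0.224 FPKM in WT LSCs and 0.16 FPKM in STAP-1 KO LSCs, so no fold is given. Of 7 stromal and endothelial markers 4 could be compared, 2 were lower and 1 was higher, which became 1 lower and 2 higher with the length and GC correction, in which Pecam1 lost its call and Kdr gained one. Cdh5 and Lepr were at 0 in STAP-1 KO LSCs and under 0.1 FPKM in WT LSCs, while Pecam1, which blood cells also express, led the list at 46.9 and 23.4 FPKM. Col1a2, a collagen chain, had 4.68 and 0.310 FPKM, and the chemokine Cxcl12 had 0.194 and 2.68 FPKM. The summed FPKM of all 7 markers was 52.4 and 27.0. The sort for GFP+ CD45.2+ cells is meant to remove stromal and endothelial cells of the recipient, and their part in the result was not tested.

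Il1rl1 encodes ST2, the receptor chain that binds IL-33, and lies on chromosome 1 (40429570 to 40465415, plus strand). The same gene also gives a shorter, soluble ST2 that acts as a decoy, and FPKM values per gene do not separate the forms. Il1rl1 had 521 FPKM in WT LSCs and 23.3 FPKM in STAP-1 KO LSCs, from about 19877 and 1243 reads. It was 22.3-fold lower (21.1 to 23.7), and 72 of the 12507 comparable genes had a lower ratio. Il1rl1 alone made up 92.8% of the summed signaling receptor FPKM in WT LSCs and 60.4% in STAP-1 KO LSCs. Without Il1rl1 the receptors summed to 40.4 and 15.2 FPKM, which was still lower but in WT LSCs was mostly Il18rap (32.5 and 4.41 FPKM). The remaining receptors, Il1r1 (6.36 and 3.53 FPKM) and Il18r1 (1.49 and 7.31 FPKM), differed in opposite directions. The transcripts of Il1rl1 begin at alternative promoters, of which the distal one is known from hematopoietic cells and the proximal one from fibroblasts. Il1rl1 had the largest difference of the 10 genes, and Il18rap, which lies beyond Il18r1 on the same strand, was lower as well. The sequences of both are therefore shown. They are RefSeq windows of 300 bases (GRCm38.p6, plus strand, 250 before to 50 after each start), with capitals marking GATA letters (AGATAA or TGATAA, on either strand) and ETS letters (GGAAGT, on either strand).
Il1rl1 distal, chr1:40429320-40429619: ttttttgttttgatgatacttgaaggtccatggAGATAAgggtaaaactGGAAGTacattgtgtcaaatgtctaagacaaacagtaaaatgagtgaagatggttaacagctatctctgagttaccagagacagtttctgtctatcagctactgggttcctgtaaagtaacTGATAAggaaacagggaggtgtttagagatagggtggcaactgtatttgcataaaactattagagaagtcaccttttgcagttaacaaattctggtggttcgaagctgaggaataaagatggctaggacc
Il1rl1 proximal, chr1:40439379-40439678: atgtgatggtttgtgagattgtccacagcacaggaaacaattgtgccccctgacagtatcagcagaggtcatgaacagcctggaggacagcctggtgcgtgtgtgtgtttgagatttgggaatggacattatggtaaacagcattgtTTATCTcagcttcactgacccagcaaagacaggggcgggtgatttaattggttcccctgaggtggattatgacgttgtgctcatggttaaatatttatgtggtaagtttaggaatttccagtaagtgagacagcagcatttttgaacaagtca
Il18rap, chr1:40515112-40515411: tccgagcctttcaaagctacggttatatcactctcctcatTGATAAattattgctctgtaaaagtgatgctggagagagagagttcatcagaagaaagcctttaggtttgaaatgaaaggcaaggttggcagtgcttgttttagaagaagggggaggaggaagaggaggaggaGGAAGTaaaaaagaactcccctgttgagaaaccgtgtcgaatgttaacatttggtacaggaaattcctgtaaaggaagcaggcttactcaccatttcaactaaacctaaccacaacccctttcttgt

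The distal window of Il1rl1 held 2 GATA matches, which began at -217 and -80 from the start site, and 1 ETS match at -201. At least 2 GATA matches were present in 3.26% of all 32851 windows of this length, and at least 1 in 18.6%. The proximal window held 1 GATA match at -103 and no ETS match. The Il18rap window held 1 GATA match at -210 and 1 ETS match at -77, the latter being present in 23.8% of all windows. Of the 3 windows of Il18r1, none held these GATA letters, which most of all windows lack. The 2 that reach back into the annotated end of Il1rl1 overlap each other and shared 1 ETS match. Among the other genes with a window, Il1r2, which was not lower, held 1 GATA match, and Il1r2, Il1r1 and Il1b each held 1 ETS match. The AP-1 letters TGANTCA, present in 7.81% of all windows, were found in Il1a and Il1rn, and the κB consensus, present in 8.46%, was found in 1 window of Il1r1. A match describes letters in a window and not a bound site, and 9 of the 10 genes had a window.

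Mast cell and basophil markers differed in the same direction as Il1rl1. Of 13 such markers 11 could be compared, 10 of them were lower and none was higher in STAP-1 KO LSCs, and their summed FPKM was 52011 in WT LSCs and 5307 in STAP-1 KO LSCs. Cpa3, the mast cell carboxypeptidase, led the list at 17984 and 1775 FPKM. Mrgprb1 was at 0 in WT LSCs, and Mrgprb2, a receptor of connective tissue mast cells, was at 0 in STAP-1 KO LSCs. The LSK gate requires c-Kit, which mast cells carry and basophils lack, and its lineage antibodies include one against CD11b, an antigen of basophils. The list also holds the basophil proteases Mcpt8 (2800 FPKM in WT LSCs and 993 FPKM in STAP-1 KO LSCs) and Prss34 (71.1 and 56.7 FPKM). Whether the gate removed basophils was not tested. Relative to Fcer1a, the alpha chain of the IgE receptor, Il1rl1 was at 0.285 in WT LSCs (0.278 to 0.292) and 0.107 in STAP-1 KO LSCs (0.0994 to 0.115). Relative to Kit it was at 1.11 (1.09 to 1.13) and 0.774 (0.718 to 0.835). Fcer1a and Kit were picked for these ratios after their values were seen. Over the 11 comparable mast cell and basophil markers, Il1rl1 per unit of the marker was lower in STAP-1 KO LSCs for 9 and higher for 2, the tryptases Tpsb2 (38.0-fold lower) and Tpsab1 (49.1-fold lower). Corrected for GC content and transcript length, it was lower for 5 and higher for 6, and the ratio to Fcer1a was 1.13-fold lower in place of 2.66-fold, so that these ratios depend on the processing. The part of mast cells or basophils in the difference of Il1rl1 was not tested.

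Il18rap and Il18r1 encode the chains of the IL-18 receptor, and they differed in opposite directions. Il18rap, the accessory chain needed for signaling, had 32.5 FPKM in WT LSCs and 4.41 FPKM in STAP-1 KO LSCs, from about 1140 and 216 reads. It was 7.37-fold lower (6.37 to 8.56), and 411 comparable genes had a lower ratio. Il18r1, the chain that binds IL-18, had 1.49 FPKM in WT LSCs and 7.31 FPKM in STAP-1 KO LSCs, from about 44 and 302 reads. Il18r1 was 4.89-fold higher (3.57 to 6.91), and 216 comparable genes had a higher ratio. The accessory chain exceeded the binding chain 21.8-fold in WT LSCs (16.2 to 30.3), and in STAP-1 KO LSCs the ratio was 0.604 (0.504 to 0.721). The more abundant of these transcripts was thus Il18rap in WT LSCs and Il18r1 in STAP-1 KO LSCs, beyond the counting intervals. The ratio of Il18rap to Il18r1 was 36.0-fold lower as deposited and 26.3-fold lower with the length and GC correction. Receptor protein was not measured, and the bulk values do not show whether the same cells held both transcripts.

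Markers of lymphoid cells, in which the IL-18 receptor is best known, were low in both libraries. The 9 markers of T, NK and innate lymphoid cells summed to 16.9 FPKM in WT LSCs and 10.2 FPKM in STAP-1 KO LSCs, none was at 0, and of 7 that could be compared 2 were lower and 3 were higher. Il7r led that list in WT LSCs, at 11.6 and 1.56 FPKM, and Cd3g, at 1.80 and 5.04 FPKM, led it in STAP-1 KO LSCs. With the length and GC correction Cd3g was under the cut-off, which left 2 markers higher. Markers of early granulocytes differed in the direction of Il18r1. All 5 were higher in STAP-1 KO LSCs, their summed FPKM was 564 and 4623, and Mpo, the myeloperoxidase of these cells, led at 248 and 1973 FPKM. Their part in the difference of Il18r1 was not tested.

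Il1r1 encodes the signaling receptor of IL-1α and IL-1β. It had 6.36 FPKM in WT LSCs and 3.53 FPKM in STAP-1 KO LSCs, from about 267 and 207 reads. The ratio of 1.80 (1.50 to 2.17) was under the cut-off of 2, although its counting interval reached beyond it. Il1r1 was the signaling receptor with the smallest difference. The median log2 ratio of the 4 signaling receptors was -1.84.

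**Figure D2:**
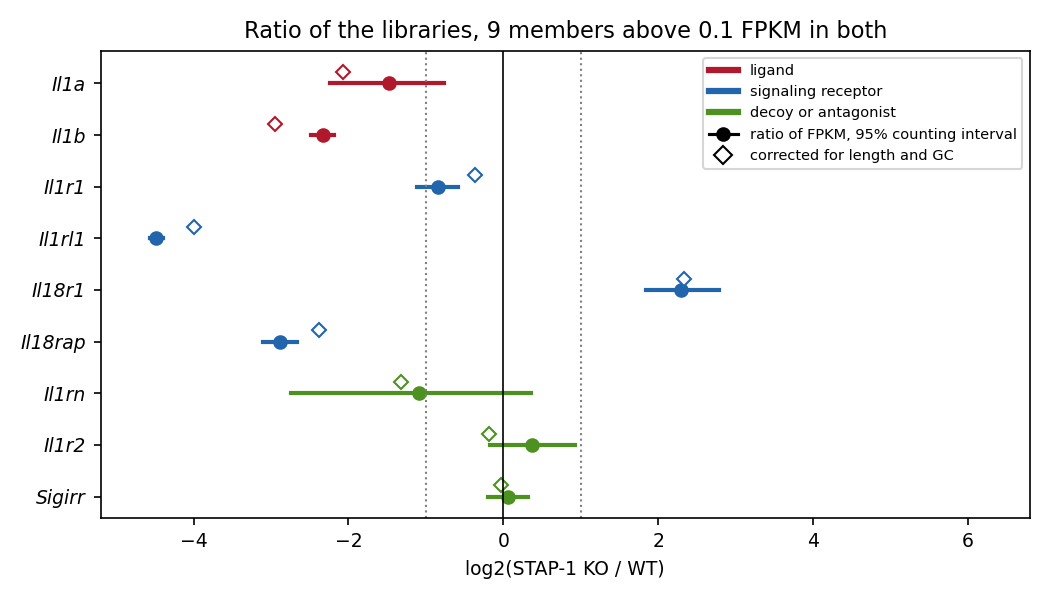
Log2 of the STAP-1 KO to WT ratio of FPKM for the 9 genes with at least 0.1 FPKM in both libraries, with 95% counting intervals as bars, the 2-fold cut-off dotted and the value corrected for transcript length and GC content as an open diamond. Il1rl1, Il18rap and Il1b lie farthest to the left, Il18r1 lies alone to the right of the cut-off, and the intervals of Il1rn, Il1r2 and Sigirr include 0.

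The signaling receptors and the decoy Il1r2 lie together on chromosome 1. The 6 genes Il1r2, Il1r1, Il1rl2, Il1rl1, Il18r1 and Il18rap follow each other on the plus strand over 478 kb. From Il1r2 to Il18rap their log2 ratios were 0.37, -0.83, -0.27, -4.48, 2.22 and -2.85. The higher gene Il18r1 thus lay between the 2 genes of the cluster that were lower. Il1rl1 ended only 136 bases before Il18r1 began, and Il18r1 (40465552 to 40500854) ended 14507 bases before Il18rap (40515362 to 40551705). In WT LSCs Il1rl1 had 521 FPKM next to 1.49 FPKM of Il18r1, and in STAP-1 KO LSCs the levels were 23.3 and 7.31 FPKM.

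**Figure D3:**
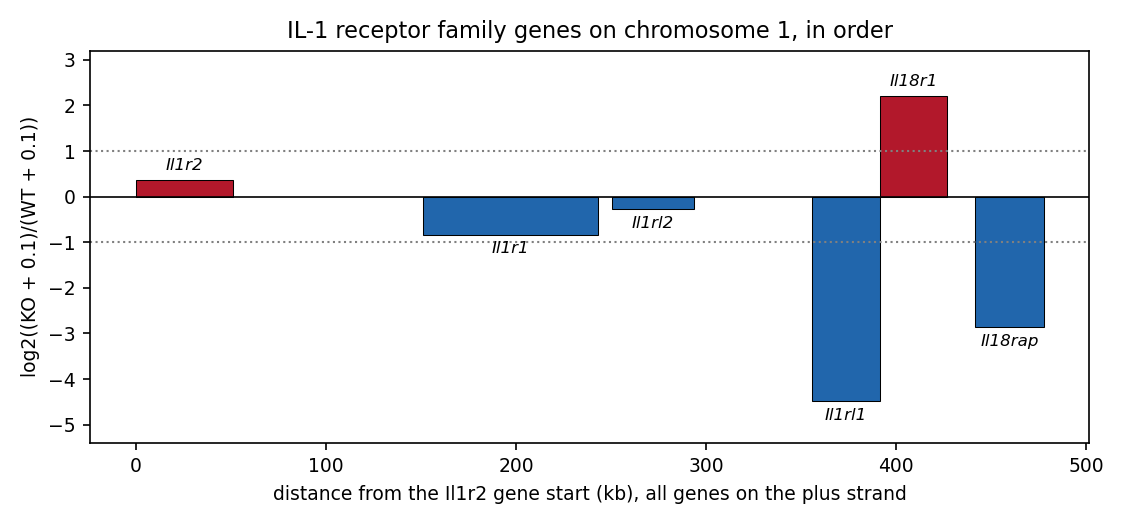
Log2 ratio of the STAP-1 KO to WT LSCs for the IL-1 receptor genes on chromosome 1, drawn to scale by distance from the start of Il1r2, with the 2-fold cut-off dotted. The adjoining genes Il1rl1 and Il18r1 show the lowest and the highest ratio of the cluster (-4.48 and 2.22), followed by Il18rap at -2.85.

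Il1rn encodes the IL-1 receptor antagonist and lies on chromosome 2 (24336853 to 24351494, plus strand). It had 0.646 FPKM in WT LSCs and 0.304 FPKM in STAP-1 KO LSCs, from about 11 and 7 reads. The ratio of 2.13 passed the cut-off, but its counting interval from 0.777 to 6.67 included 1. A difference of Il1rn was therefore not detectable at this depth. Relative to Il1rn, Il1b was at 308 in WT LSCs (171 to 616) and at 130 in STAP-1 KO LSCs (64.5 to 335), with overlapping intervals. Transcripts of the ligand thus exceeded those of its antagonist widely in both libraries.

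Il1r2 encodes the decoy receptor, which binds IL-1 without signaling (chromosome 1, 40074079 to 40125231, plus strand). It had 5.05 FPKM in WT LSCs and 6.56 FPKM in STAP-1 KO LSCs, from about 46 and 83 reads. The ratio of 1.30 was under the cut-off, with an interval from 0.891 to 1.90. Its log2 ratio was 0.37, and -0.18 with the length and GC correction, so that Il1r2 has no settled direction. Relative to the decoy, the signaling receptor Il1r1 was at 1.26 in WT LSCs (0.911 to 1.75) and at 0.538 in STAP-1 KO LSCs (0.415 to 0.703). These intervals did not overlap, but the ratio, 2.34-fold lower as deposited, was 1.14-fold lower with the length and GC correction, in which the log2 ratio of Il1r1 was -0.36. Most of the difference in this balance was therefore not kept by the correction.

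Sigirr encodes a single-domain receptor that dampens IL-1 and Toll-like receptor signals (chromosome 7, 141091175 to 141100572, minus strand). It had 15.6 FPKM in WT LSCs and 16.2 FPKM in STAP-1 KO LSCs, from about 208 and 303 reads. The ratio of 1.04 had an interval from 0.872 to 1.25, which did not reach 2-fold in either direction. Corrected for transcript length and GC content, its log2 ratio was -0.02 in place of 0.06. Sigirr held 73.2% of the summed decoy and antagonist FPKM in WT LSCs and 70.3% in STAP-1 KO LSCs. Il1rl1 exceeded Sigirr 33.4-fold in WT LSCs (29.1 to 38.5) and 1.43-fold in STAP-1 KO LSCs (1.26 to 1.63).

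Of the other genes of the family only Il18bp passed the cut-off in the values as deposited. Il1rap, the accessory chain shared by the receptors of IL-1 and IL-33, had 3.66 FPKM in WT LSCs and 6.45 FPKM in STAP-1 KO LSCs, a ratio of 1.76 that was under the cut-off. Il1rl1 exceeded this partner 142-fold in WT LSCs (119 to 172) and 3.61-fold in STAP-1 KO LSCs (3.18 to 4.12). Il1r1 exceeded it 1.74-fold in WT LSCs (1.39 to 2.18), and in STAP-1 KO LSCs the ratio of Il1r1 to Il1rap was 0.547 (0.455 to 0.656). Il18 had 4.26 and 2.32 FPKM, also under the cut-off, but it passed with the length and GC correction (log2 ratio -1.61 in place of -0.85). Il18bp, the soluble inhibitor of IL-18, had 15.3 FPKM in WT LSCs and 5.04 FPKM in STAP-1 KO LSCs and was 3.04-fold lower. Il1rl2, the IL-36 receptor, had 3.60 and 2.96 FPKM. Transcripts of the IL-36 and IL-38 group were near absent, since Il1f6, Il1f8, Il1f5 and Il1f10 were at 0 in both libraries and Il1f9 had 0.0927 and 0.0664 FPKM. The neuronal receptors Il1rapl1 and Il1rapl2 were at 0 in both libraries.

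Downstream of the receptors, 19 genes of the MyD88 signaling chain were all measured, 5 of them were lower and none was higher in STAP-1 KO LSCs. Their median log2 ratio was -0.48, beside -0.04 over the genes of the series that averaged 1 FPKM or more. The 5 lower genes were the kinase Irak2 (13.9 FPKM in WT LSCs and 4.07 FPKM in STAP-1 KO LSCs), the ubiquitin ligase Traf6 (18.4 and 8.91 FPKM), the IRAK-binding inhibitor Tollip (108 and 30.6 FPKM) and the TAK1 adapters Tab2 (16.4 and 7.65 FPKM) and Tab3 (6.91 and 1.49 FPKM). The share of lower genes, 5 of 19, was near the background of 22.9%. With the length and GC correction 3 genes were lower, and Traf6 and Tab2 were under the cut-off.

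Genes of the inflammasome and of cytokine maturation were split. Of 19 genes 18 could be compared, 6 were lower and 6 were higher (22.9% and 12.3% over all genes), and the median log2 ratio was -0.14 over all 19 and -0.42 over the 16 that averaged 1 FPKM or more. With the length and GC correction 6 were lower and 5 were higher. Casp1, the protease that matures IL-1β, had 11.8 FPKM in WT LSCs and 32.1 FPKM in STAP-1 KO LSCs and lost its call with that correction, as did P2rx7, while Aim2 was then lower. The proteases that can process IL-1 family ligands lay at both ends. The mast cell chymase Cma1 had 13924 FPKM in WT LSCs and 1168 FPKM in STAP-1 KO LSCs, and the calpain Capn2 had 60.8 and 9.59 FPKM. The neutrophil granule proteases were higher in STAP-1 KO LSCs, Elane with 112 and 823 FPKM, Prtn3 with 57.4 and 525 FPKM and Ctsg with 104 and 841 FPKM. Cma1 is also one of the mast cell markers above, and Elane, Prtn3 and Ctsg are also among the early granulocyte markers, so these are not separate observations.

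Genes that IL-1 family cytokines are known to induce were mostly lower. Of 18 genes 16 could be compared, 11 were lower and 3 were higher (22.9% and 12.3% over all genes), and the median log2 ratio was -1.94 over all 18 and -2.22 over the 14 that averaged 1 FPKM or more. Ccl2, a chemokine for monocytes, had 383 FPKM in WT LSCs and 15.8 FPKM in STAP-1 KO LSCs. Il6 had 384 and 52.1 FPKM, and the chemokine Ccl1 had 58.4 and 6.44 FPKM. The type 2 cytokines Il13 (19.8 and 1.44 FPKM) and Il4 (274 and 42.2 FPKM), both made by mast cells and basophils, were lower as well. The 3 higher genes, Ifng, Cxcl1 and Ccl17, had at most 12 estimated reads in either library, and their counting intervals included a ratio of 1. None of them was higher with the length and GC correction. The part of mast cells and basophils in the differences of this list was not tested. Over the 5 lists of other family and pathway genes, 57 of 67 genes could be compared, and 23 were lower and 9 were higher, beside the background of 22.9% and 12.3%. The 9 higher genes became 5 with the length and GC correction, 5 with a floor of 1 FPKM and 5 at a 4-fold cut-off.

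**Figure D4:**
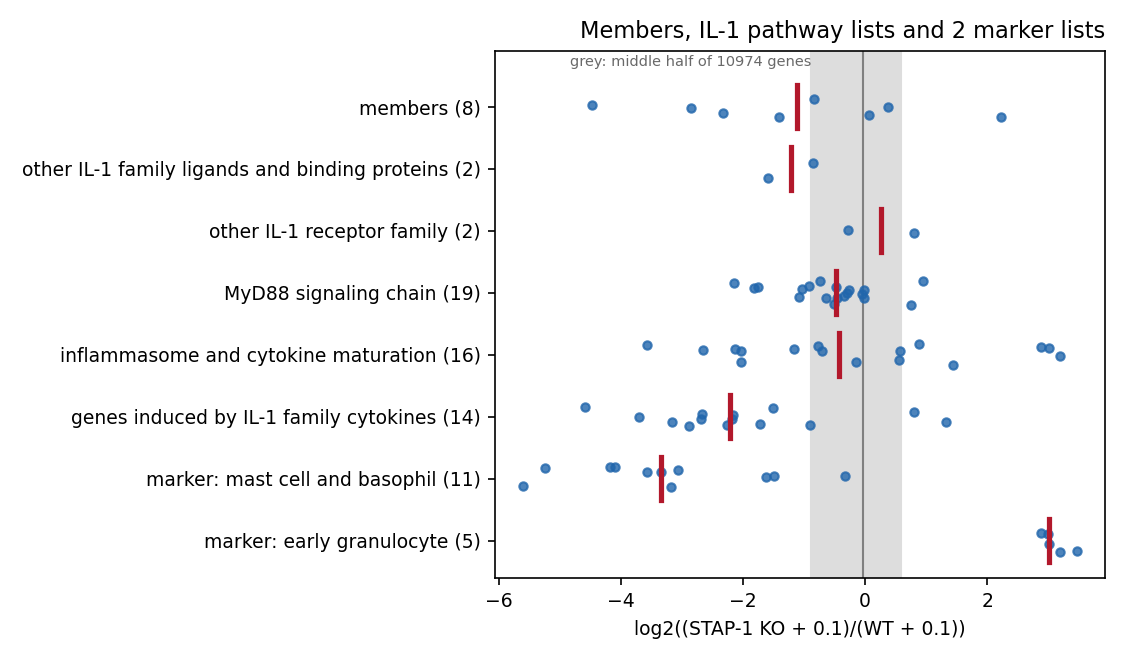
Log2((STAP-1 KO + 0.1)/(WT + 0.1)) of single genes (points) with a mean of at least 1 FPKM, by list, with the number of genes in brackets, red bars at the list medians and a grey band over the middle 50% of the 10974 genes of the series with such a mean (grey line, median -0.04). The medians lie at -1.12 for the members, -2.22 for the induced genes, -3.34 for mast cell and basophil markers and 3.01 for early granulocyte markers.

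Other marker lists were examined as well. Neutrophil markers, a mature cell type that expresses Il1b and Il1r2, summed to 349 FPKM in WT LSCs and 149 FPKM in STAP-1 KO LSCs, with 5 of 7 lower, none higher and S100a8 leading at 204 and 108 FPKM. Monocyte and macrophage markers, another source of Il1b, summed to 195 and 148 FPKM, with 4 of 8 lower and 2 higher. Cd68 led in WT LSCs, at 95.7 and 26.3 FPKM, and Ly6c2, at 20.5 and 98.0 FPKM, led in STAP-1 KO LSCs. Eosinophil markers summed to 32.1 and 85.2 FPKM, with 1 of 5 lower and 3 higher. Siglec5, which led in WT LSCs, had 27.9 and 11.4 FPKM, whereas Prg2 (2.12 and 61.7 FPKM), Epx (1.02 and 8.62 FPKM) and Prg3 (0.360 and 2.84 FPKM) were higher in STAP-1 KO LSCs. Of the B cell markers Pax5 and Ebf1 were at 0 in both libraries, Cd79a was at 0 in WT LSCs, and Cd79b led at 3.10 and 17.8 FPKM. Of 8 LSK and stem cell markers 4 were lower, 2 with the length and GC correction, and 1 was higher, and Kit led in WT LSCs, while Cd34, at 281 and 194 FPKM, led in STAP-1 KO LSCs. The lineage antibodies that the methods name include those against CD11b and Gr-1, antigens of mature neutrophils and monocytes, and the LSK gate is meant to remove such cells. Their part in the differences of Il1b and Il1a was not tested.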

How the data were processed

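GFP+ CD45.2+ LSK cells of 1 WT and 1 STAP-1 KO group were sequenced by the authors as 75-base single reads from cDNA amplified with a SMART-Seq low-input kit. The deposited FPKM values were made by the authors with TopHat 2.0.13, Bowtie2 2.2.3, SAMtools (0.1.19 per the submitters' processing notes) and Cuffnorm of Cufflinks 2.2.1 on mm10. The annotation and the scaling that Cuffnorm used were not given in the sources used here.

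Values were read with Python 3.11.15 and its packages pandas 2.3.3, scipy 1.17.1 and numpy 2.4.6. Log2 ratios used a pseudocount of 0.1 FPKM, which understates the change of low genes, and counts used a 2-fold cut-off without a pseudocount at 0.1 FPKM or more in both libraries. Of 23284 symbols, 20911 matched GENCODE M21 (GRCm38) as written, 1906 matched by another symbol and 467 did not match. The files state no read totals. Steps between low FPKM values gave effective depths of 7500000 reads (WT) and 10470000 reads (STAP-1 KO), at which 47.8% of 320 and 49.1% of 389 low values lay within 0.01 of a whole read, so that read numbers are estimates. They rest on the longest coding transcript, less 212 bases (WT) and 208 bases (STAP-1 KO). Intervals of ratios are exact (Clopper-Pearson, 95%) on rounded reads. The steps were tested on simulated data.

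Genes named were the 10 members, all other family genes, up to 5 of each further list that differed most when 1 FPKM was added to both levels, Stap1, markers at 0 or leading in WT, and the 3 genes nearest to Il1rl1. Ly6a, Fcer1a, further single markers and pathway genes and the genes beside the receptor cluster were added after their values were seen. The members and lists were chosen with earlier results of these data known. A marker gene among them is not reported here. Promoter sequences are from RefSeq. The alternatives changed scaling, floor, pseudocount, cut-off and a length and GC correction.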

Additional observations from a re-analysis of the deposited data

How the results depend on the processing

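With 1 library per genotype, depth and the lack of replicates limit every value. No paired analysis was possible because there was 1 library per genotype, and none could be left out. The 6 genes past the cut-off kept their direction with the length and GC correction. The scalings (factors of 0.996 and 0.973) and the pseudocounts could not have turned a 2-fold difference, so they do not test direction. Over these 5 settings Il1rl1 ranged from -4.48 to -3.99 on the log2 scale and Il18r1 from 1.74 to 2.34. The length and GC correction turned Il1r2 to -0.18 and Sigirr to -0.02 and with them the median of decoys and antagonists to -0.18, and it moved the median of signaling receptors to -1.37. Il1rn lost its call with a floor of 1 FPKM or with a pseudocount, which left 4 members lower. At 4-fold, 3 members and 15 pathway genes were lower. Higher pathway genes, 9 as reported, numbered 5 with the correction, 5 with a floor of 1 FPKM and 5 at 4-fold. The median of ligands, -1.41 as reported, was -2.07 with the correction, -2.33 with a pseudocount of 0.01 FPKM and -1.02 with one of 1 FPKM. A read minimum of 10 and a ligand median without genes of 3 or fewer reads (-1.87 in place of -1.41) were added after seeing the data.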

Other observations

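Over the 2 libraries, the 3 genes with levels most like those of Il1rl1 were Cd200r3 (549 FPKM in WT LSCs and 30.3 FPKM in STAP-1 KO LSCs), Kit (468 and 30.1 FPKM) and Nov (421 and 28.2 FPKM). Their distances from Il1rl1 on the log2(FPKM + 0.1) scale were 0.384, 0.399 and 0.409. They were the only 3 genes within 0.5. Cd200r3 is an activating receptor of mast cells and basophils and is one of the mast cell and basophil markers used above. With 2 libraries this likeness is a description of both levels.

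Beyond the ends of the receptor cluster on chromosome 1, the kinase gene Map4k4, the next gene before Il1r2, had 5.50 FPKM in WT LSCs and 1.26 FPKM in STAP-1 KO LSCs and was lower as well. On the other side, Slc9a4 was at 0 in both libraries, and Slc9a2 had 0.0406 FPKM in WT LSCs and was at 0 in STAP-1 KO LSCs.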
